A study of Mus musculus with 2 samples.

Results

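Mir451a, Mir144 and Mir486 are the microRNA genes most closely tied to red blood cells, and they were followed here in adrenal gland tissue as a possible measure of blood in the samples. The members were chosen by symbol from knowledge of red-cell microRNAs, with earlier results of these data known. They are 3 of the 2202 microRNA genes counted. Each table row was found by its Ensembl identifier through the GENCODE M21 annotation. The tissue came from wild-type C57BL/6J mice supplied by The Jackson Laboratory, with no treatment named. There was 1 group of 2 libraries, biological replicates 2 and 1. A label calls the mice female, while another says that sex was not collected, and age and stage are given as unknown. Both libraries carry the same donor identifier, and nothing says that the glands came from separate animals. The p-values therefore compare these libraries by counting error alone, and the differences may be technical. No library of blood was included in the series, so levels could not be turned into an amount of blood.

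MicroRNAs are short RNAs cut from hairpin precursors. They guide Argonaute proteins to messenger RNAs through the seed, bases 2 to 8 from the 5′ end. Mir144 and Mir451a lie side by side and are copied as a single primary transcript, which the factor GATA1 switches on as red-cell precursors mature. The miR-451a hairpin is too short for Dicer and is cut by Ago2 instead, and mice without miR-451 have red cells that are sensitive to oxidative stress. Mir486 sits in Ank1, the gene of the red-cell membrane protein ankyrin 1, and is also abundant in striated muscle. All 3 microRNAs are abundant in mature red cells, which carry no nucleus but keep small RNAs. Whether the vessels of the glands were flushed is not given in the labels.

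The mature sequences are shown because the seed defines the targets and because they decide which reads could be placed at a single locus. They come from RefSeq on GRCm38.p6, the assembly also called mm10, and the table held mature sequences for 2 of the 3 members. Capitals mark the seed. The opposite-strand microRNA miR-451b is included for comparison.
mmu-miR-451a: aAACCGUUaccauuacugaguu
mmu-miR-144-5p: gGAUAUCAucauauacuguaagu
mmu-miR-144-3p: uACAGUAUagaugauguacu
mmu-miR-451b: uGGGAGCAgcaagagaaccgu
None of these 4 seeds was shared with a mature microRNA of another gene among 1738 mature sequences in the table. The bases 2 to 7 of miR-144-3p were also those of miR-101a-3p.

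The hairpins show how the products of the locus lie on each strand, with capitals marking the mature microRNAs.
Mir144: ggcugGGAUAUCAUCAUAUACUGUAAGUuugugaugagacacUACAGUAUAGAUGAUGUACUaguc
Mir451a: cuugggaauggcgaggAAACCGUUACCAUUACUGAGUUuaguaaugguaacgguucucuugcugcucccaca
Mir451b: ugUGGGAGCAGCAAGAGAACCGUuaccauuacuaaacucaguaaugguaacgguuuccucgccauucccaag
In the Mir144 hairpin of 66 bases, a mature microRNA lies on each arm, at bases 6 to 28 and 43 to 62. In the Mir451a hairpin of 72 bases there is 1 mature microRNA, at bases 17 to 38. It runs past the midpoint at base 36 and into the loop. Mir451b is the same stretch of DNA read from the other strand, and its mature microRNA comes from other bases.

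Mir144 (ENSMUSG00000065401.1) lies on the plus strand at chr11:78073005-78073070 and Mir451a (ENSMUSG00000070065.1) on the same strand at chr11:78073170-78073241, 99 bases further on (mm10). Mir144 overlaps no other annotated gene. Mir451b covers exactly the bases of Mir451a on the minus strand, and the nearest protein-coding gene is Eral1, 135 bases away on the minus strand. Mir486 (ENSMUSG00000070084.3) lies at chr8:23142555-23142682 on the plus strand, in an intron of Ank1. It overlaps Mir3107 on the minus strand, at chr8:23142573-23142662, and an intron of the antisense gene Gm15816.

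The libraries held 6570375 counts on the strand of a microRNA gene in replicate 2 and 9137907 in replicate 1. Multiply aligned reads, which are counted in no gene, were 36.04% of replicate 2 and 35.86% of replicate 1. A gene with a count of 0 may lie at up to 0.457 CPM in replicate 2 and 0.328 CPM in replicate 1. CPM here means the same-strand counts of a gene per 1000000 same-strand counts of all microRNA genes in that library. Intervals and limits cover counting error only.

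Mir451a led the group in both libraries. It had 1609 counts in replicate 2, or 245 CPM (exact Poisson 95% interval 233 to 257), against 1001 counts in replicate 1, or 110 CPM (103 to 117). The intervals did not overlap, and replicate 2 was the higher library. The mean was 177 ± 95.7 CPM (SD, n = 2). By level Mir451a was number 135 of the 2202 genes in replicate 2 and number 175 in replicate 1, while 1384 of them had no count in either library.

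Mir144, its neighbour on the same transcript, was counted far less. It had 163 counts in replicate 2, or 24.8 CPM (21.1 to 28.9), against 193 counts in replicate 1, or 21.1 CPM (18.2 to 24.3). These intervals overlapped, and the mean was 23.0 ± 2.61 CPM (SD, n = 2). A Mir144 count adds both arms of its hairpin, so miR-144-5p and miR-144-3p could not be told apart.

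Mir486 was close to Mir144 in level. It had 164 counts in replicate 2, or 25.0 CPM (21.3 to 29.1), against 121 counts in replicate 1, or 13.2 CPM (10.99 to 15.8). The intervals did not overlap, and replicate 2 was again the higher library. Its mean of 19.1 ± 8.29 CPM (SD, n = 2) was below that of Mir144 by less than its own SD but by more than the SD of Mir144. In replicate 2 their intervals overlapped, and in replicate 1 Mir144 was the higher gene and the intervals did not overlap. Mir451a stood above both in each library, although its mean rests on libraries that differed.

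**Figure D1:**
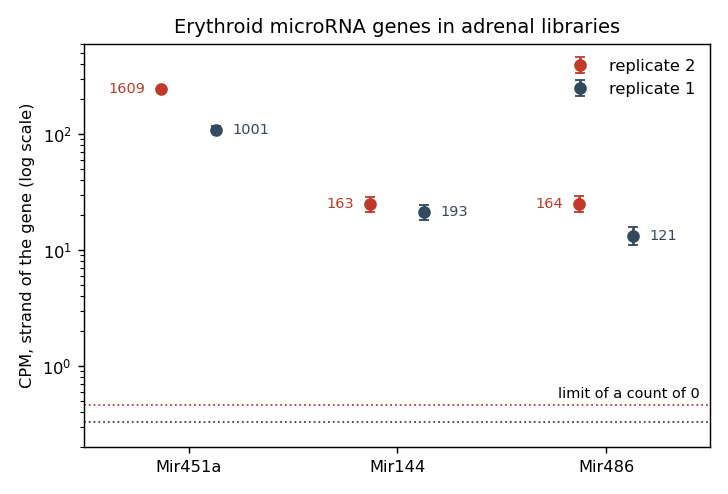
Level of each erythroid microRNA gene in CPM on a log axis, with replicate 2 left of replicate 1, exact Poisson 95% intervals and the counts beside the points. Mir451a had 1609 and 1001 counts in replicates 2 and 1, and Mir144 and Mir486 lay between 13.2 and 25.0 CPM, all above the dotted limits of a count of 0 (0.457 and 0.328 CPM in replicates 2 and 1).

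Summed, the 3 genes held 1936 counts in replicate 2, against 1315 counts in replicate 1. That was 0.0295% of the same-strand counts of all microRNA genes in replicate 2 (exact binomial 95% interval 0.0282 to 0.0308). In replicate 1 it was 0.0144% (0.0136 to 0.0152). Most of the sum was Mir451a, at 83.1% in replicate 2 and 76.1% in replicate 1. As counted, the sum thus follows Mir451a, and a reading of it is close to a reading of that gene. The Mir486 part of the sum, and so these shares, are uncertain because its hairpin may lose reads, as described below. In these bulk samples, fewer red cells and less of the microRNA per cell cannot be told apart.

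The genes next to each member by mean level lay within its spread. Directly above Mir451a stood Mir300 at 178 ± 4.61 CPM and Mir30c-1 at 177 ± 3.999 CPM, and directly below it Mir874 at 174 ± 28.4 CPM and Mir329 at 174 ± 46.1 CPM (SD, n = 2 each). None of the 4 differed from Mir451a by more than its SD, which is no test, since the neighbours were picked as nearest in mean level. Mir144 stood between Mir129-1 and Mir1188 above and Mir106a and Mir6236 below, at means from 21.5 to 23.6 CPM. Mir486 stood between Mir493 and Mir505 above and n-TSaga9 and Mir7j below, at means from 18.4 to 19.7 CPM.

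The strand columns of the tables decide whether 2 of the 3 members are seen at all. Mir451a had no count in the column of reads on either strand, in both libraries. In that column the row of ambiguous reads held 570517 reads in replicate 2 and 875601 in replicate 1, while it held 0 in the columns that use strand. On its own strand the locus had 1609 and 1001 counts in replicates 2 and 1. Mir451b, on the other strand, had 0 in each, which allows a share of up to 0.186% and 0.2997% of the counts of the locus. Counts at this locus were therefore seen on the strand of Mir451a alone. Mir144 had the same counts with and without strand, 163 in replicate 2 and 193 in replicate 1, and no opposite-strand count.

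Mir486 also had no count in the column of either strand. On the opposite strand, which belongs to Mir3107, there were 11 counts in replicate 2 and 4 in replicate 1. They made up 6.29% (exact binomial 95% interval 3.18 to 10.97) and 3.20% (0.879 to 7.99) of the counts of the locus, so the intervals overlapped.

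The Mir486 hairpin differs from the others in a way that bears on its count. Its bases 33 to 54 and 73 to 94, 22 bases each, were also found unchanged on its own opposite strand, so a read of that length from either stretch matches both strands equally well. Of 111 windows of 18 bases in the hairpin, 10 occurred at such a second place. How far Mir486 loses reads to the row of multiply aligned reads was not tested, and its level is uncertain for this reason. Its place in the order of levels and the share of each member in the sum, given above, rest on the same counts and share this limit. So do its fold between the libraries and its ratios to the other members, given below. The Mir144 hairpin had no such window among 49 and the Mir451a hairpin none among 55, when searched against both strands of 2202 hairpins. The longest stretch of Mir451a found on its opposite strand was 16 bases. The mature miR-451a differed from the best full-length match on that strand at 4 of 22 bases.

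**Figure D2:**
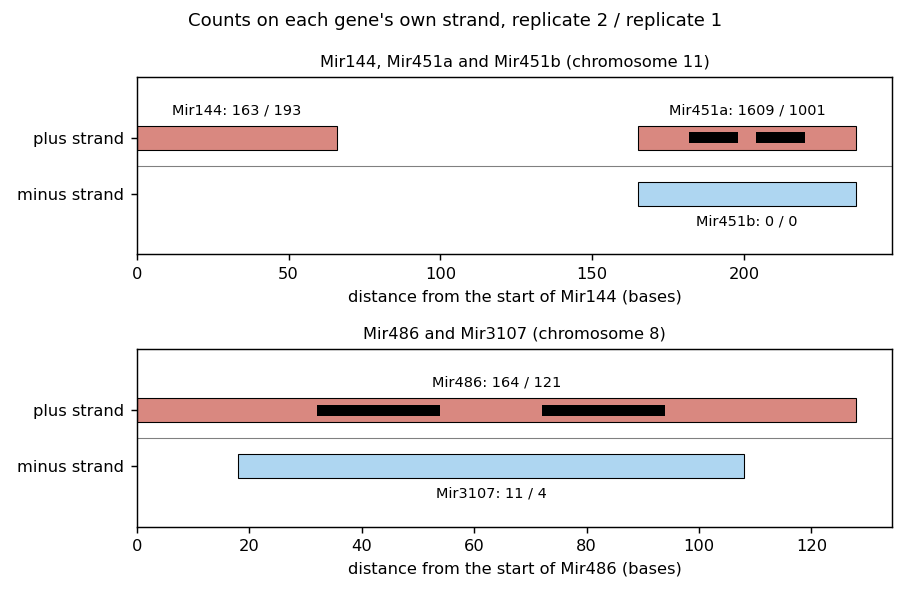
Maps of both loci by distance in bases from the start of Mir144 (top) and of Mir486 (bottom), with counts on each gene's own strand as replicate 2 / replicate 1; boxes above the line are on the plus strand and boxes below it on the minus strand. Black bars mark the longest stretches that also occur on the opposite strand, 16 bases in Mir451a and 22 bases in Mir486.

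The libraries were compared to see whether the red-cell microRNAs differ between adrenal samples of the same strain and move together. For each gene the split of its counts between the libraries was set against that of the TMM-scaled library sizes (TMM, trimmed mean of M values) in a two-sided exact binomial test. Adjustment followed Benjamini and Hochberg over all 426 genes that had at least 20 counts in the libraries together. Mir451a was higher in replicate 2, 2.08-fold (95% counting interval 1.92 to 2.25, log2 ratio 1.06, adjusted p = 9.81e-76 in the exact binomial test). Mir486 was higher there too, 1.75-fold (1.38 to 2.24, log2 ratio 0.81, adjusted p = 7.78e-06 in the same exact test). Mir144 did not pass, at 1.09-fold (0.882 to 1.35, log2 ratio 0.13, adjusted p = 0.541 in the same exact test).

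Thus 2 of 3 members were called, both higher in replicate 2. Of all 426 genes, 56.1% were called and 25.8% were called higher in replicate 2, so being called says little by itself. Scaled by total counts, the same 2 members were called, with 57% of all genes called and 35.2% called higher in replicate 2. TMM lowered every log2 ratio by 0.10 against that scaling. In size, 27 of the 426 genes had a log2 ratio at least as high as that of Mir451a, 41 as high as that of Mir486 and 153 as high as that of Mir144. In either direction, 11.3% of the genes differed by as much as Mir451a or more, 18.8% by as much as Mir486 and 76.1% by as much as Mir144. Among the 160 genes with at least the counts of Mir451a, 9 had a ratio as high and 14 differed by as much in either direction. Each of these counts and shares includes the member itself. The binomial test knows counting error only, and whether separate animals would differ in this way was not tested.

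**Figure D3:**
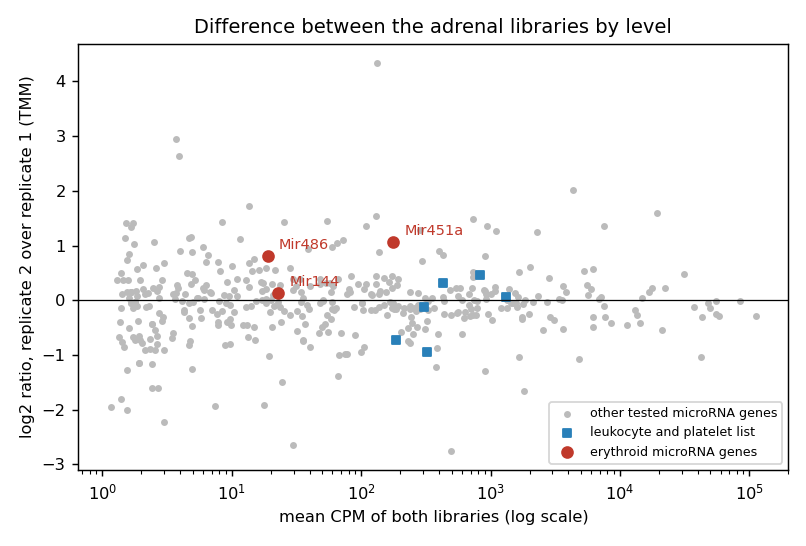
Log2 ratio of replicate 2 over replicate 1 after TMM scaling against mean CPM on a log axis, 1 point per tested gene (426 genes). Mir451a (1.06) and Mir486 (0.81) lie in the upper part of the cloud and Mir144 (0.13) in its middle, and the squares of the leukocyte and platelet list lie on both sides of 0.

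The members did not all move alike. Within a library the ratio of 2 genes does not depend on the scaling. There were 9.87 counts of Mir451a for each count of Mir144 in replicate 2 (exact 95% interval 8.40 to 11.7), against 5.19 in replicate 1 (4.44 to 6.08). That ratio was 1.90 times as high in replicate 2 (1.51 to 2.39, Fisher's exact test, two-sided, adjusted p = 5.70e-08 over 3 pairs). Mir144 against Mir486 gave 0.994 in replicate 2 (0.795 to 1.24) and 1.60 in replicate 1 (1.26 to 2.02), a ratio 0.624 times as high in replicate 2 (0.449 to 0.864, Fisher's exact test, adjusted p = 0.00494). Mir451a against Mir486 gave 9.81 (8.35 to 11.6) and 8.27 (6.84 to 10.1) in replicates 2 and 1. Its change of 1.19 times did not pass (0.917 to 1.53, Fisher's exact test, adjusted p = 0.179), and the interval allows up to 1.53 times.

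Mir144 and Mir451a come from the same transcript and yet differed by 0.93 in their log2 ratios. Such gaps were not rare in these libraries. For comparison, 71 pairs of tested hairpins following each other on the same strand within 1000 bases were taken, after the values were seen. Their median gap was 0.44, and 17 pairs differed by at least as much as Mir144 and Mir451a, which were 1 of the 17. Among the 56 pairs whose less counted gene had at least the 356 counts of Mir144, 12 did, this pair included, and the median gap was 0.44. Some pairs hold genes that share a mature sequence with another gene, such as Mir16-1 with Mir16-2, so their counts leave out shared reads.

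The ratio of miR-451a to miR-23a is used in plasma as an index of red-cell lysis, with Mir23a as a microRNA that red cells contribute little of. Mir23a had 189966 counts (28913 CPM) in replicate 2 and 505300 counts (55297 CPM) in replicate 1. There were 8.47 counts of Mir451a per 1000 of Mir23a in replicate 2, a log2 ratio of -6.88 (exact 95% interval -6.96 to -6.81), against 1.98 in replicate 1, a log2 ratio of -8.98 (-9.07 to -8.89). The ratio differed by 2.10 on the log2 scale. With TMM scaling, Mir451a contributed 1.06 of this, and Mir23a, at a log2 ratio of -1.04 between the libraries, contributed the rest. The split depends on the scaling, and by total counts Mir451a contributed 1.16. In this tissue the index thus moved as much with its denominator as with the red-cell gene. It was measured by sequencing here, so no threshold from plasma was applied.

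MicroRNAs that are abundant in red cells but also in many other cells were mixed. Of 10 such genes, 5 passed the test in the direction of replicate 2, 1 passed in that of replicate 1 and 4 missed the threshold, where 25.8% of all genes tested were called higher in replicate 2, with a median log2 ratio of 0.20 against -0.025 over all 426 genes tested. Mir16-1, of the miR-15/16 family, had 1189 CPM in replicate 2 and 631 CPM in replicate 1 (log2 ratio 0.81), and Mir16-2 had 378 and 215 CPM (0.71). Their mature miR-16-5p is identical, so their counts leave out reads that match both. Mir15a, 54 bases from Mir16-1, went the other way, at 910 CPM in replicate 2 and 2685 CPM in replicate 1 (log2 ratio -1.66). Mir92-1 of the miR-17-92 cluster had 1213 and 953 CPM in replicates 2 and 1 (log2 ratio 0.24) and shares its mature sequence with Mir92-2. The 10 genes summed to 4916 CPM in replicate 2 and 5384 CPM in replicate 1, and this direction rests on Mir15a. Without it, a split made after the values were seen, the other 9 summed to 4005 CPM in replicate 2 and 2699 CPM in replicate 1.

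White blood cells and platelets share the vessels with red cells, and their microRNAs were read beside Mir451a. The list holds 8 genes, of which 3 passed the test as higher in replicate 2, 3 passed as higher in replicate 1 and 2 had too few counts to be tested, where 25.8% of all genes tested were called higher in replicate 2 and 56.1% were called, with a median log2 ratio of -0.032. Mir142, found across blood cells, had 231 CPM in replicate 2 and 416 CPM in replicate 1 (log2 ratio -0.95). Mir223, of myeloid cells and platelets, had 147 and 227 CPM (log2 ratio -0.73). Both were thus lower in replicate 2, where Mir451a was higher. Mir155 passed in the same direction as these 2 genes, at a log2 ratio of -0.12. Mir342 (log2 ratio 0.45) and Mir150 of mature lymphocytes (0.32) were higher in replicate 2, and Mir146 passed at a log2 ratio of 0.059. The genes not tested were Mir146b, at 3 and 7 counts in replicates 2 and 1, and Mir142b on the strand opposite to Mir142, at 0 in both. The list summed to 3559 CPM in replicate 2 and 3238 CPM in replicate 1, against 295 and 144 CPM for the erythroid members. The part of white cells in the differences of the erythroid genes was not tested.

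**Figure D4:**
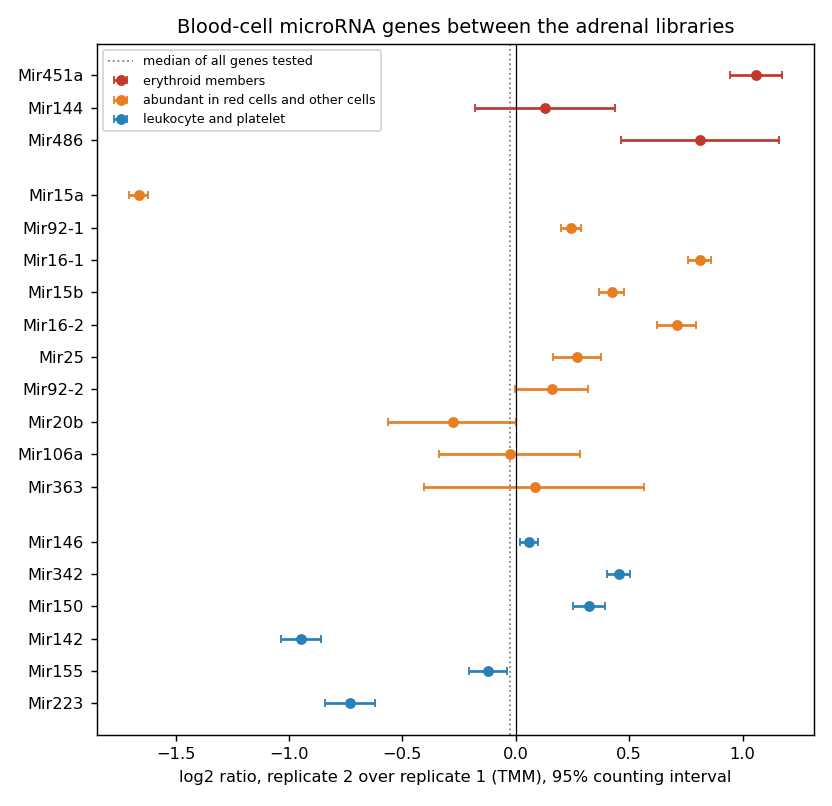
Log2 ratio of replicate 2 over replicate 1 (TMM scaling) with 95% counting intervals for the erythroid members, the list abundant in red cells and other cells, and the tested genes of the leukocyte and platelet list, 1 row per gene; the dotted line is the median of all genes tested (-0.025). Mir451a (1.06) lies furthest to the right of the genes drawn and Mir15a (-1.66) furthest to the left. Of the leukocyte and platelet genes, Mir142, Mir223 and Mir155 lie below 0 and Mir342, Mir150 and Mir146 above it.

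Because Mir486 is also a muscle microRNA, the muscle list was read beside it. The 10 striated muscle genes summed to 6.39 CPM in replicate 2 and 5.36 CPM in replicate 1, against 25.0 and 13.2 CPM for Mir486. Mir1b had 31 and 37 counts in replicates 2 and 1 and did not pass the test (log2 ratio 0.12), Mir499 had 8 and 8, Mir206 had 3 and 2, and Mir133b had 0 and 2. The other 6, Mir1a-1, Mir1a-2, Mir133a-1, Mir133a-2, Mir208a and Mir208b, were at 0 in both libraries. The first 4 of these share 11 to 21 windows of 18 bases with another hairpin, so their level cannot be read from a count of 0. Mir1b shares 11 such windows and Mir133b 4, so the muscle sum is a lower limit. The Mir486 hairpin has 10 windows found at a second place, so the level set against that sum is uncertain too. Mir208a and Mir208b, the heart and slow-muscle genes, shared no window of 18 bases with another hairpin.

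The endothelial microRNA of the vessel wall was the most abundant gene of these lists. Mir126a had 54325 CPM in replicate 2 and 61677 CPM in replicate 1 (log2 ratio -0.29). It passed the test as lower in replicate 2, the library in which Mir451a was higher. Of all 426 genes tested, 56.1% were called and 129 were called higher in replicate 1. Mir126b, on the strand opposite to Mir126a, had 3 and 17 counts in replicates 2 and 1 and also passed as lower in replicate 2.

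With 2 libraries, likeness to Mir451a can be read only from the size of the ratio. Among 183 other genes averaging 100 CPM or more, those nearest to it were Mir341 (log2 ratio 0.90), Mir543 (0.89) and Mir140 (1.25). Mir341 had 529 CPM in replicate 2 and 263 CPM in replicate 1, Mir543 had 184 and 92.6 CPM, and Mir140 had 3269 and 1279 CPM.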

How the data were processed

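MicroRNA-seq of total RNA, with a size range below 30 per the labels, was made from adrenal gland tissue in 2 libraries. The authors deposited raw read counts for 2202 microRNA genes on mm10 with GENCODE M21, per the description deposited with them. Adapter trimming is named in the labels' protocols. Which aligner and counter were used is not given in the sources used here. The tables hold 3 columns without headers, read from their layout as either strand, the strand of the gene and the opposite strand. The 4 rows that name no gene were left out; they hold 54.6% of the reads of replicate 2 and 51.2% of replicate 1.

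All 2202 identifiers matched GENCODE M21. Log2 ratios add 0.5 counts to each library. Tests used scipy 1.17.1 with TMM factors from edgeR 4.0.16, and the threshold was an adjusted p of 0.05. One library on each side leaves no degrees of freedom for a fit of the spread, so a negative binomial model was not used. Alternatives were total counts, DESeq2 1.42.0 size factors, no filter, counts on either strand, 1 count added, and library sizes with the rows that name no gene. The members and lists were chosen with earlier results of these data known. Genes named are the members, genes overlapping them, Mir23a, the 2 genes next above and below each member by level, the 3 nearest to Mir451a in log2 ratio, and the leading 3 genes and those at 0 of each list; others were named after their values were seen.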

Additional observations from a re-analysis of the deposited data

Results flagged for a closer look

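Reads outside the main measurement were seen for 1 member. Mir486 had 11 counts on the opposite strand in replicate 2 and 4 in replicate 1, above the 3 counts that a count of 0 allows. They are the sense counts of Mir3107. Mir451a and Mir144 had no opposite-strand count in either library.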

How the results depend on the processing

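Across the alternatives that gave a value, all 16 log2 ratios of the members kept their direction and their side of the threshold. Adding 1 count enters the log2 ratio alone, so it could not change a side of the threshold. For Mir144 the counts on either strand were those on its own strand, so only the scaling differed. Mir451a ranged from 1.06 to 1.16, Mir486 from 0.81 to 0.91 and Mir144 from 0.12 to 0.23. In the exact binomial test the highest adjusted p was 1.88e-75 for Mir451a and 1.49e-05 for Mir486, and for Mir144 they ran from 0.207 to 0.710. With counts on either strand 0 members were called in place of 2, since Mir451a and Mir486 had 0 counts there, at a level of 0 CPM each, and the summed level was 25.3 CPM in place of 219 CPM. The ratios between members and that of Mir451a to Mir23a gave no value there. Per 1000000 reads of all kinds, which is a larger denominator, the mean level was 82.3 for Mir451a, 10.8 for Mir144, 8.90 for Mir486 and 102 for the sum. Leaving out a library gave 110 to 245 CPM for Mir451a and 144 to 295 CPM for the sum, and no test was possible with the library that was left. By total counts, 3 genes of the red-cell differentiation list were higher in replicate 1 in place of 5. In the leukocyte and platelet list 2 were higher there in place of 3, and its median log2 ratio was 0.071 in place of -0.032. The list abundant in red cells and other cells had 6 genes higher in replicate 2 in place of 5. Its median log2 ratio was 0.30 in place of 0.20. By that scaling 35.2% of all genes tested were called higher in replicate 2. No paired analysis was possible because there is 1 group.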

Other observations

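MicroRNAs that act on red-cell precursors or decline as they mature were read as an 8-gene list beside the erythroid genes. Of these, 3 were higher in replicate 2 and 5 were higher in replicate 1 in the exact binomial test, where 56.1% of all genes tested were called, with a median log2 ratio of -0.13 against -0.025 over all genes tested. Mir150, Mir155 and Mir223, 3 of the 8, are also in the leukocyte and platelet list. Mir222, which in human precursors holds down the receptor gene KIT, had 237 CPM in replicate 2 and 515 CPM in replicate 1 (log2 ratio -1.22). Its cluster partner Mir221 had 1322 and 1352 CPM in replicates 2 and 1 (log2 ratio -0.14). Mir191, which falls late in mouse red-cell maturation, led the list at 6073 and 5309 CPM in replicates 2 and 1 (log2 ratio 0.091). Mir24-1 (log2 ratio 1.35) and Mir24-2 (-0.49) went opposite ways, and they share a mature sequence, so their counts leave out reads that match both.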
